A study of Saccharomyces cerevisiae with 2 samples.

Results

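Ribosome biogenesis factors are the proteins and small nucleolar ribonucleoproteins (snoRNPs) that cut, modify and fold the precursor ribosomal RNA and assemble it with ribosomal proteins in the nucleolus. In budding yeast their genes are transcribed together when cells grow fast, and many of their promoters carry 2 sequence elements named PAC and RRPE. Vid22 is a nuclear protein that acts in a complex with its paralog Env11 and with Tbf1, a Myb domain protein that binds the sequence TAGGG in promoters and near telomeres. The genes described here are 58 of the 6002 nuclear protein-coding genes in the RefSeq annotation of the sacCer3 assembly. They were chosen by symbol, as a fixed list of factors for both ribosomal subunits, and all 58 symbols were found in the annotation.

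The tested library comes from a Vid22-13Myc strain, in which the protein carries a Myc epitope tag and was immunoprecipitated with a monoclonal antibody against Myc. The other library, the control of the peak calling, comes from a wild type strain with no tag, also grown in YEP medium and cross-linked in the same way with formaldehyde. The labels list no antibody for the control, while the names of the peaks in the deposited list call both libraries immunoprecipitates, and which of these holds was not settled. Each of the 2 conditions has 1 library, made from a pool of separate ChIP experiments, so there are no replicates and no test between samples could be made.

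The list holds 811 peaks, and 445 of them have a -log10 q-value (the false discovery rate at the summit) of at least 9, the threshold used here unless all peaks are named. In these 445 peaks the enrichment at the summit, as a fold of the control, ran from 1.42 to 6.98, with a median of 1.87, and they covered 4.88% of the nuclear genome. The list gives no read counts, so the depth behind a single peak is unknown. The 95% Wilson intervals below cover the counting of genes in this list and not the variation between cultures. They treat genes as separate even where neighbours share a peak. A promoter is the 500 bp upstream of the annotated gene start.

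Vid22 summits were found in the promoters of 2 of the 58 genes, PNO1 and UTP20. This is 3.45% (Wilson interval 0.951% to 11.7%), against 321 of the 5944 other protein-coding genes (5.40%, 4.85% to 6.0%) and 5.38% of all genes. A peak overlapped the gene body or the promoter in 3 of the 58 genes, the third being UTP9, or 5.17% (1.77% to 14.1%). The same was true of 705 other genes (11.9%, 11.1% to 12.7%) and of 11.8% of all genes. The listed genes were not shorter, with a median gene length of 1463 bp against 1197 bp for the other genes. A promoter summit with a fold above 3 was present at PNO1 alone, 1.72% of the list, against 2.42% of the other genes and 2.42% of all genes. For each of these 3 measures the interval over the 58 genes includes the share of the other genes, and no difference was detectable with a list of this size. The median promoter fold at the 2 genes was 4.34 and stands for a pair of very different peaks. Over the 321 other genes it was 2.39, or 2.11 with each peak counted once.

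**Figure D1:**
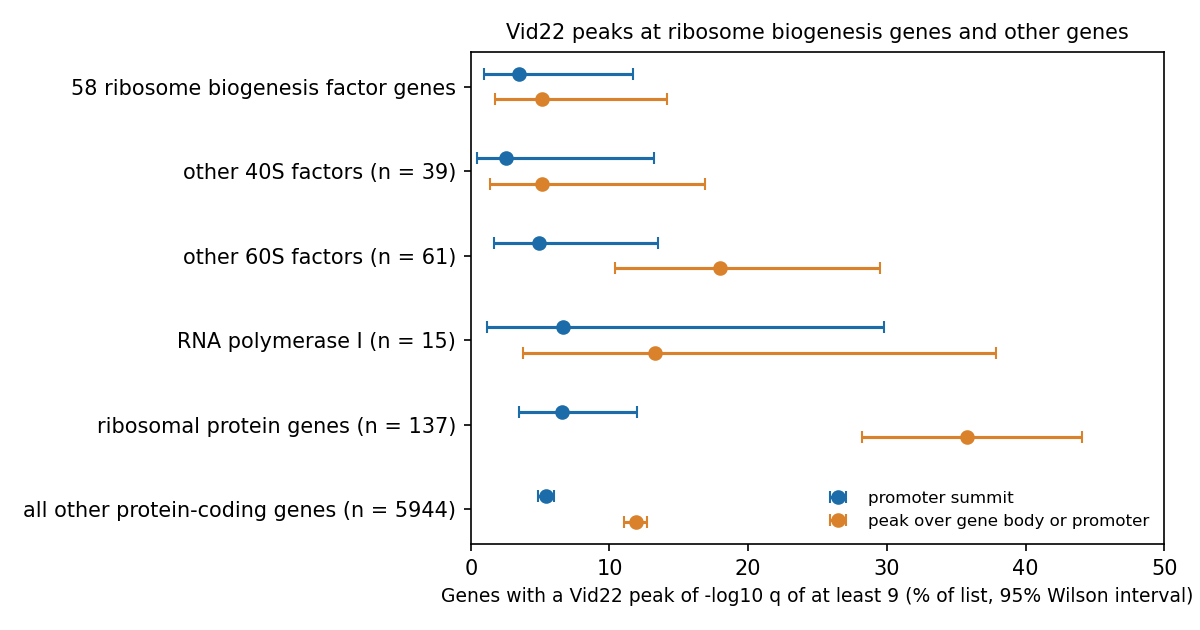
Share of genes with a Vid22 peak of -log10 q of at least 9, for the 58 ribosome biogenesis factor genes, 4 other gene lists and all other protein-coding genes. The x axis is the percentage of the list, blue points are promoter summits, orange points are peaks over gene body or promoter, and bars are 95% Wilson intervals. The 58 genes are at 3.45% and 5.17%, and the ribosomal protein genes reach 35.8% for peaks over gene body or promoter.

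PNO1 (YOR145C, chromosome XV, 605347 to 606171, reverse strand) encodes a KH domain protein of the small subunit processome that stays on the 40S precursor until it is cleaved in the cytoplasm. Its peak spans 604840 to 608330, 3491 bp, with the summit at 606371, 200 bp upstream of the gene. The fold enrichment was 6.98 and the -log10 q was 284.0, both the highest values of the list. In all, 5 peaks share this fold and 7 share this -log10 q. The 435 bp between PNO1 and MDM32, which encodes a protein of the inner mitochondrial membrane, separate 2 gene starts that point away from each other. The summit lies 236 bp upstream of MDM32 as well, and the peak covers all of PNO1, so the data cannot assign it to either gene. It also reaches the start of ELG1, a gene of DNA replication and repair.

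The 260 bases upstream of PNO1 (sacCer3 chrXV:606172-606431, reverse strand) are shown because they hold the summit and the motifs nearest to it. Capitals mark TAGGG, the core of the RRPE element (AAAAATTT on either strand, here overlapping copies on both) and the core of the PAC element (GATGAG, here on the other strand).

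PNO1 upstream: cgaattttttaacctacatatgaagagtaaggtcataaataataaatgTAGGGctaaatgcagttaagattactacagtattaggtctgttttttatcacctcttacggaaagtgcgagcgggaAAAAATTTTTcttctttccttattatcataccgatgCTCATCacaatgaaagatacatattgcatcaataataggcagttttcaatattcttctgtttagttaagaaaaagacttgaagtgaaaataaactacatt

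The TAGGG in this stretch lies 208 to 212 bp upstream of PNO1, and its edge is 8 bp from the summit. The RRPE core nearest to the summit is 64 bp from it, and the PAC core is 100 bp from it, both on the side of PNO1. The nearest predicted G4 element, taken as at least 4 tracts of GGG with loops of 1 to 25 bases, is 10203 bp from the peak. A second TAGGG, 459 to 463 bp upstream of PNO1, is outside the stretch shown and lies within MDM32.

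**Figure D2:**
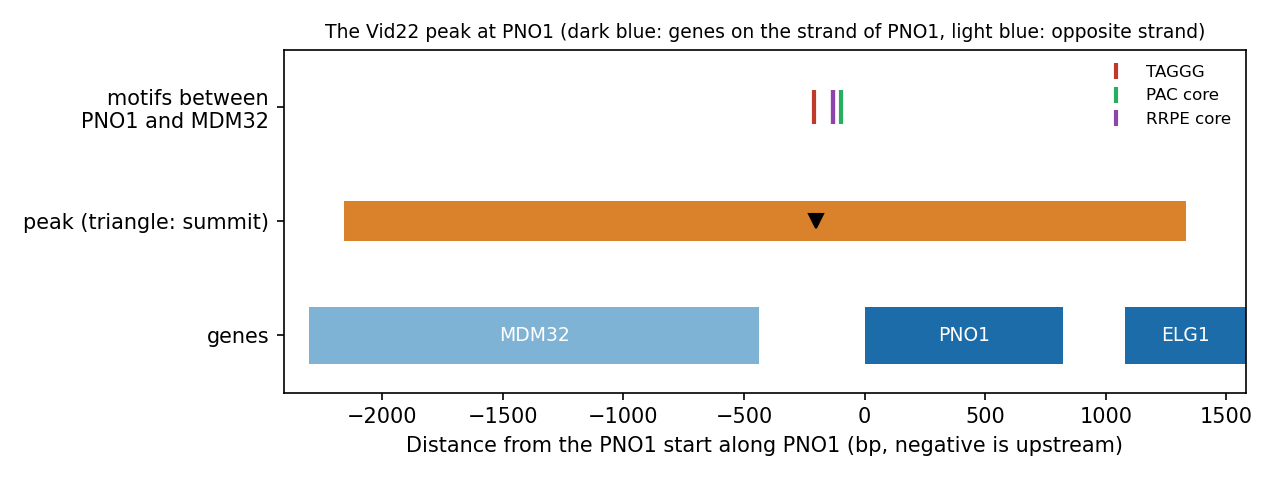
Map of the Vid22 peak at PNO1, with the distance from the PNO1 start in bp on the x axis, negative upstream. The peak (orange) runs from -2159 to 1331, its summit (triangle) is at -200, and the TAGGG between PNO1 and MDM32 is at -212 to -208, next to the summit and farther from PNO1 than the RRPE and PAC cores.

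UTP20 (YBL004W, chromosome II, 227636 to 235117, forward strand) encodes a large helical repeat protein of the small subunit processome. Its peak was short and weak, from 226974 to 227295 (322 bp), with a fold enrichment of 1.70 and a -log10 q of 15.9, rank 260 of 811. The summit at 227170 is 466 bp upstream of UTP20, near the far edge of the promoter as defined here. It is 14 bp beyond the end of a serine tRNA gene (YNCB0006W, 227075 to 227156), which the peak covers completely. UTP20 was the only one of the 58 genes with a tRNA gene in its promoter or gene body. Among the 164 other genes with a tRNA gene there, 104 (63.4%, Wilson interval 55.8% to 70.4%) had a peak over the gene body or promoter. Without peaks that overlap tRNA genes, PNO1 was the only listed gene with a promoter summit, and 3.90% of the other genes had one.

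The sequence around this summit (chrII:227110-227230, forward strand) and the 200 bases just before UTP20 (chrII:227436-227635) are shown to set the place of the peak against that of the promoter elements. The first stretch begins within the tRNA gene and holds none of the motifs searched, and in the second capitals mark an RRPE core and a PAC core.

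UTP20 summit: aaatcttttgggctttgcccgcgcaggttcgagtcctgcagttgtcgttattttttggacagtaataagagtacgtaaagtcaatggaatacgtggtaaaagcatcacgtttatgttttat

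UTP20 upstream: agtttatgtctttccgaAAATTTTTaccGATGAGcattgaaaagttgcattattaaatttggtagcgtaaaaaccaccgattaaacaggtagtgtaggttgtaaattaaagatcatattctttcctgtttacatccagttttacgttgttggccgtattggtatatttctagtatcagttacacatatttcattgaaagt

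UTP9 (YHR196W, chromosome VIII), a subunit of the UtpA complex that binds the precursor first, was covered by part of a broad peak whose listed summit is elsewhere. The list gives a single summit for each peak and no reads, so a further rise of signal at UTP9 would not be seen. The peak runs from 484348 to 493629, 9282 bp over 8 genes, with a fold of 4.68 and a -log10 q of 200.4. It ends 29 bp before the end of UTP9. Its summit lies 3467 bp upstream of UTP9, with TAGGG at 21 bp, between the divergent genes EGD2 (228 bp upstream of it) and MDM31 (193 bp upstream of it). EGD2 encodes a subunit of the nascent polypeptide-associated complex.

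Below the threshold, 6 more peaks overlapped 5 of the genes, none with a summit in a promoter. With all 811 peaks, 8 of the 58 genes (13.8%, Wilson interval 7.16% to 24.9%) had a peak over gene body or promoter, against 1033 of the other genes (17.4%) and 17.3% of all genes. The count of promoter summits stayed at 2 genes (3.45%), against 6.93% of the other genes and 6.90% of all genes. NOP56, a core protein of the box C/D snoRNPs that guide ribose methylation, had 2 weak peaks with summits in its coding sequence. These lie 101 and 1121 bp downstream of the gene start, with a fold of 1.5 and 1.61 and a -log10 q of 3.87 and 6.90. NOP1, the methyltransferase of the same particles, had a peak with a summit 553 bp into the gene, a fold of 1.32 and a -log10 q of 2.98.

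NHP2, a core protein of the box H/ACA snoRNPs that guide pseudouridylation, had a peak over most of its gene, with the summit 245 bp from the start, a fold of 1.51 and a -log10 q of 5.34. SOF1, of the small subunit processome, had a summit 866 bp into the gene, with a fold of 1.42 and a -log10 q of 3.33. IMP3, which binds the U3 snoRNA with Mpp10 and Imp4, was touched over 150 bp by a peak whose summit is inside the neighbouring gene SKG6, with a fold of 1.59 and a -log10 q of 6.02. The other snoRNP protein genes, NOP58, CBF5, GAR1 and NOP10, had no peak.

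**Figure D3:**
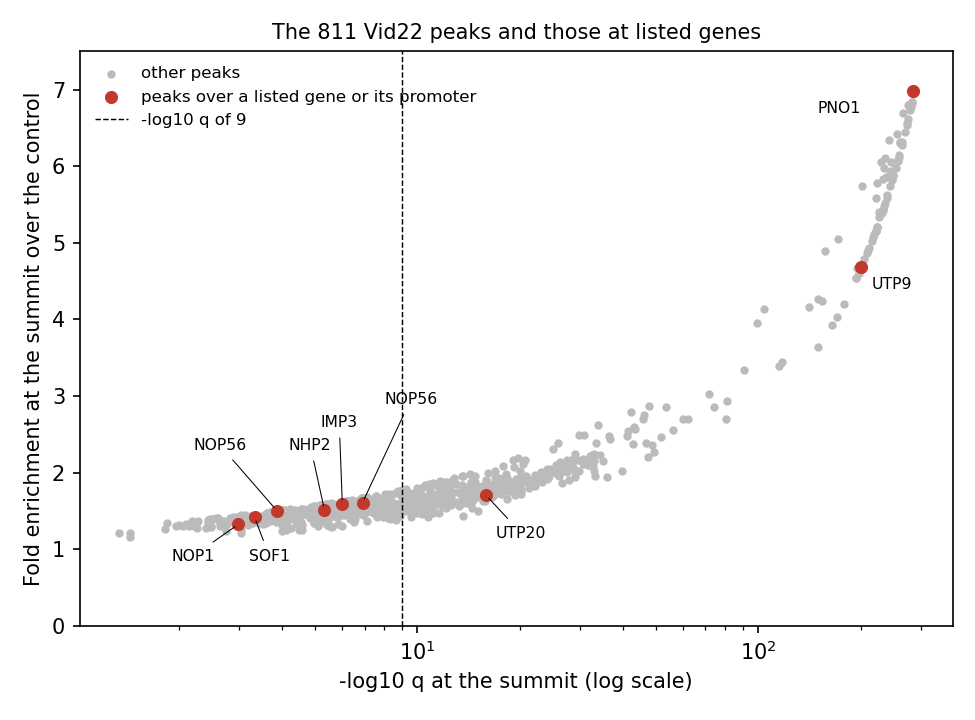
Fold enrichment at the summit (y axis) against -log10 q (x axis, log scale) for the 811 peaks, with the 9 peaks over a listed gene or its promoter in red. PNO1 is at the top of the list with a fold of 6.98, and UTP9 is at 4.68 through a broad peak with its listed summit elsewhere. The other 7 peaks have folds from 1.32 to 1.70, with all but UTP20 left of the threshold at 9.

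The remaining 50 genes had no peak, strong or weak. With all peaks, 17.3% of all genes had a peak over gene body or promoter, so most genes of the genome have none. This does not hold for every role, since 73.0% of the ribosomal protein genes had one. By role, no peak was found at UTP4, UTP5, UTP8, UTP10 and UTP15 of UtpA, at UTP6, UTP13, UTP18 and UTP21 of UtpB, or at UTP22 and RRP7 of UtpC and their partner RRP36. These complexes coat the precursor as it is transcribed. In the Mpp10 complex, MPP10 and IMP4 had none. Of the other processome genes it was absent from UTP7, UTP11, UTP14, UTP23, UTP25, UTP30, NOP9, NOP14, RRP3, RRP9, BMS1, ENP2 and KRR1. The late 40S factors DIM1, a dimethyltransferase, NOB1, the nuclease that makes the mature 18S end and a partner of Pno1, and ENP1 had no peak either. None of the 13 genes for 60S factors had one, among them NOP2, a methyltransferase, NOP7, a scaffold of early 60S precursors, RRP1, NOP4, NOP8, NOP12, NOP13, NOP15, NOP16, NOP53, RRP8, RRP15 and RRP17. The same held for RRP5, RRP12 and RRP14, which serve both subunits. Of the 61 other 60S factor genes counted below, 17 (27.9%) had a peak with all peaks, so its absence is not a trait of 60S factors.

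Peaks can be called only where reads can be placed. In 57 of the 58 promoters all stretches of 50 bases, the read length, are unique in the genome, and in UTP30 82.2% of them are.

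The distance from the gene start to the nearest summit had a median of 10638 bp over the 58 genes and 10187 bp over the other genes. A summit lay within 5000 bp of the start of 16 of the 58 genes (27.6%) and of 31.2% of the other genes. Within 1000 bp it was 2 of 58 (3.45%, Wilson interval 0.951% to 11.7%) against 10.4%, a share that this interval includes. The genes next in order after PNO1 and UTP20 were RRP15 at 1287 bp, RRP1 at 1662 bp, NOP12 at 1784 bp and NOP13 at 1794 bp. The summits near RRP15 and RRP1 belong to peaks over tRNA genes, with folds of 1.65 and 1.72. That near NOP12 lies inside RPP2A, a gene for a ribosomal stalk protein, with a fold of 1.65. That near NOP13 lies in the promoters of MDG1 and APC1, with a fold of 2.31. The farthest was IMP4, 73885 bp from a summit.

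**Figure D4:**
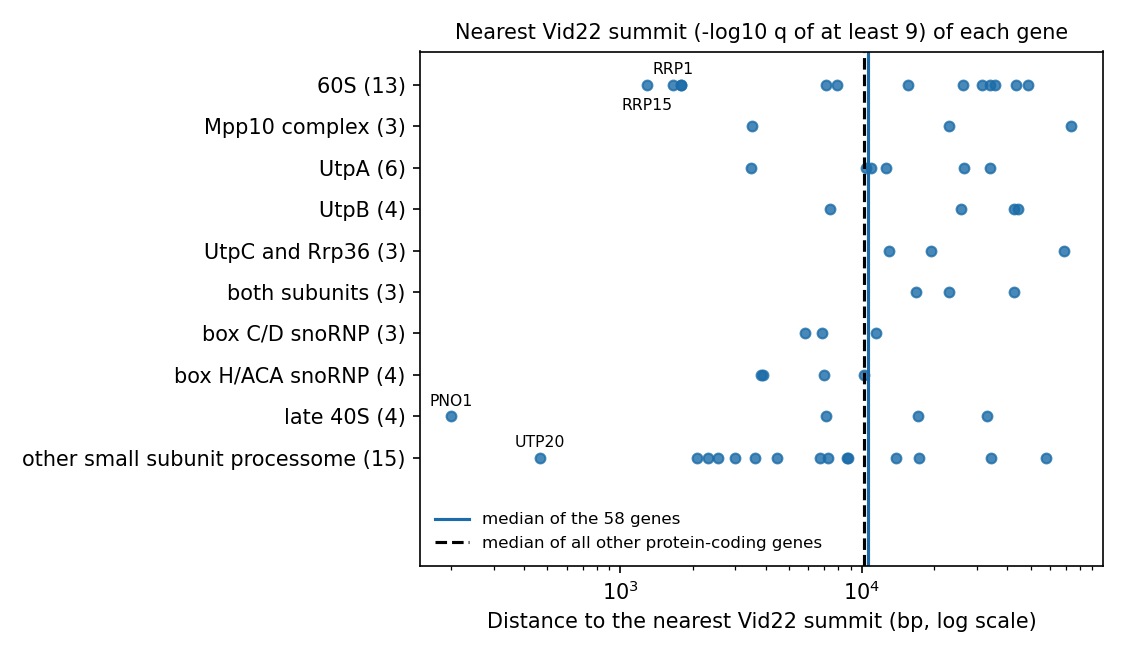
Distance from the start of each of the 58 genes to the nearest Vid22 summit (x axis, bp, log scale), with 1 row for each role and the number of genes in brackets. PNO1 at 200 bp and UTP20 at 466 bp stand apart from the other genes, which begin at 1287 bp, and the medians of the list (10638 bp) and of the other genes (10187 bp) nearly coincide.

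The promoters of the list carried the elements known for this class. The PAC core GATGAG was present, on either strand, in 52 of 58 promoters (89.7%, Wilson interval 79.2% to 95.2%), against 27.6% of the other promoters. The RRPE core AAAAATTT was present in 50 (86.2%, 75.1% to 92.8%), against 19.9%. Both were present in 44 promoters (75.9%), against 7.81%. The nearest PAC core of a gene lay at a median of 105 bp from its start, and the nearest RRPE core at 127 bp. A promoter summit was found in 2 of the 44 promoters with both cores (4.55%), against 29 of 464 such promoters of other genes (6.25%). NOP56 is shown as an example with both elements and no promoter peak (chrXII:545897-546096, forward strand, with the cores in capitals).

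NOP56 upstream: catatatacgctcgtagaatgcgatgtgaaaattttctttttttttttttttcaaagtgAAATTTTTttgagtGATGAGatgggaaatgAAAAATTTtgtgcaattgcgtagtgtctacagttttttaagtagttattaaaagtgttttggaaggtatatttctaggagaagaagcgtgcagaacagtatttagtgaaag

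TAGGG, searched on both strands, was present in 11 of the 58 promoters (19.0%, Wilson interval 10.9% to 30.9%), against 2007 of the other promoters (33.8%, 32.6% to 35%). Here the interval of the list ends below that of the other genes. The median GC content was 34.8% in the listed promoters and 36.6% in the others, and its part in this difference was not tested. Of the 11 promoters with TAGGG, 1 had a summit (9.09%, 1.62% to 37.7%), against 208 of 2007 (10.4%). Of the 47 without it, UTP20 alone did (2.13%), against 113 of 3937 (2.87%).

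**Figure D5:**
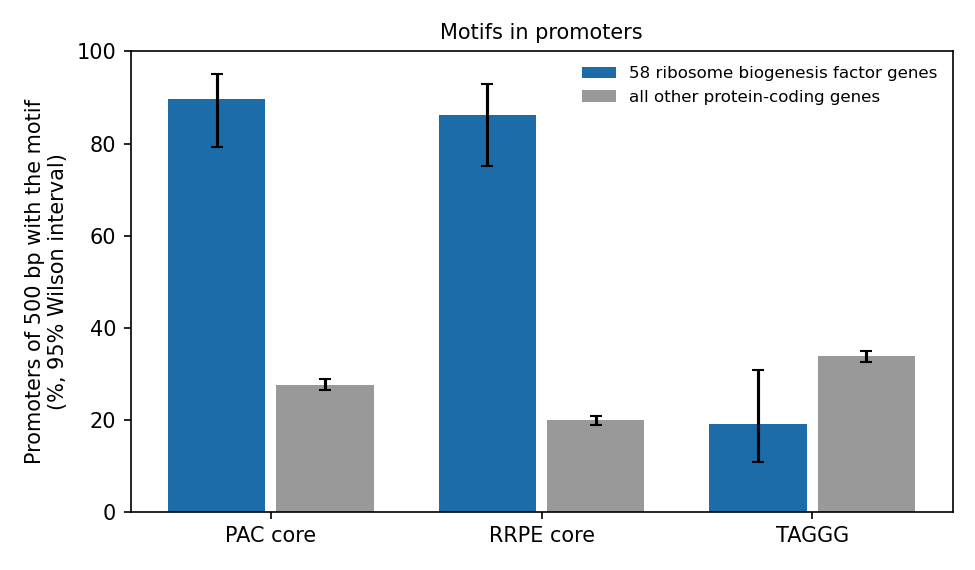
Share of promoters of 500 bp with the PAC core, the RRPE core and TAGGG on either strand (y axis, percent), for the 58 ribosome biogenesis factor genes (blue) and all other protein-coding genes (grey), with 95% Wilson intervals. PAC and RRPE cores are more frequent in the 58 promoters (89.7% and 86.2%), and TAGGG is less frequent (19.0% against 33.8%).

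The promoters of the list hold 15 TAGGG sites in all. Those in 6 genes have T or C as the next letter, and they are shown with the summit site of PNO1 to compare it with like sites that have no peak. Each stretch of 25 bases is read along TAGGG, which is in capitals.

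PNO1, 208 bp upstream: ataataaatgTAGGGctaaatgcag
UTP30, 176 bp upstream: acaattagtaTAGGGtatttcaacc
UTP30, 63 bp upstream: tctctattagTAGGGcatcgatttt
NOP4, 183 bp upstream: tggctccctaTAGGGttacccatgg
NOP15, 41 bp upstream: accttttctaTAGGGttaagttcta
RRP7, 48 bp upstream: aagaggcattTAGGGcgaacgaact
NOB1, 419 bp upstream: ataagcacttTAGGGtgtaaggtct

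The remaining 8 sites, in NOP4, NOP10, NOP12, NOP15, RRP17, NHP2, ENP1 and again PNO1, are followed by A or G. The next letter was looked at only after the peaks had been seen. In the promoter peaks of other genes with a fold above 3, 80 of 85 had TAGGG within 100 bp of the summit, and in 76 of these 80 (95%) the site nearest to the summit was followed by T or C. Over all TAGGG sites in the promoters of other genes the share was 1087 of 2223 (48.9%), and in the listed promoters it was 7 of 15 (46.7%). Of the 6 listed promoters with such a site, PNO1 alone had a summit (16.7%, Wilson interval 3.01% to 56.4%), against 172 of 1070 promoters of other genes (16.1%). The site of PNO1 belongs to this class, and the nearest summit to the other 5 genes was 2537 bp away at UTP30 and 7120 to 43615 bp away at NOB1, RRP7, NOP4 and NOP15.

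Other genes of the pathway were counted in the same way, from lists of the whole pathway by role, and are to be read against 5.38% of all genes with a promoter summit and 11.8% with a peak over gene body or promoter. Among 39 other 40S factor genes, 1 had a promoter summit (2.56%) and 2 a peak over gene body or promoter (5.13%). The promoter summit was at FCF1, which encodes a processome protein, with a fold of 2.23 and a tRNA gene in the same window, as at UTP20. The FCF1 promoter holds no TAGGG. Among 61 other 60S factor genes, 3 had a promoter summit (4.92%) and 11 a peak over gene body or promoter (18.0%, Wilson interval 10.4% to 29.5%). The summits were at DBP7, an RNA helicase gene, with a fold of 6.57, ARX1, for an export factor of the 60S precursor, with 6.06, and YTM1, a partner of Nop7, with 1.68. All 3 promoters contain TAGGG. Of 15 genes for RNA polymerase I and its initiation factors, RPA12 alone had a promoter summit, with a fold of 5.78 and TAGGG in the promoter. DBP7 and RPA12 have divergent neighbours, RPC37 and NTA1, as PNO1 has MDM32, so their summits cannot be assigned to 1 gene with certainty. With PNO1, 4 of the 173 genes counted had a promoter summit with a fold above 3 (2.31%), close to the 2.42% of all genes.

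The ribosomal protein genes, which are expressed with the biogenesis factors, differed from them over gene bodies. Of 137 such genes, 9 (6.57%) had a promoter summit, against 5.38% of all genes. None of these had a fold above 3, which allows a share of up to 2.73% by the Wilson interval. A peak over gene body or promoter was present in 3 of the 58 biogenesis factor genes (5.17%, 1.77% to 14.1%), against 49 of these (35.8%, 28.2% to 44.1%). The intervals do not overlap. Of all genes, 11.8% had such a peak, a share inside the interval of the biogenesis factor genes and below that of the ribosomal protein genes. With all peaks the counts were 8 of the 58 biogenesis factor genes (13.8%) and 100 of the 137 ribosomal protein genes (73.0%), against 17.3% of all genes.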

How the data were processed

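ChIP-seq was done on Vid22-13Myc and wild type (no tag) cells, with 1 library each. Reads of 50 bp were aligned by the authors with bowtie, reporting only uniquely placed reads, then freed of PCR duplicates with samtools. MACS2 with its default settings called the peaks. Versions are not given in the sources used here. Per the submitters' processing notes the build is sacCer3, and the sequence accessions in the deposited list are those of the RefSeq genome. The whole-number score deposited with each of the 811 peaks equals its q column multiplied by 10 without the decimals. The deposited fold enrichment is a ratio of the summit to the local control, and MACS2 also gave the deposited p-value and q-value as -log10.

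Peaks were kept at a -log10 q of at least 9. Gene starts are those of the RefSeq annotation, so transcribed leaders are part of the promoter. Promoters were 500 bp long, and overlap meant at least 1 bp. Motifs were searched on both strands. Of 117 entries for other pathway genes, 115 distinct genes were found, 4 entries by synonym. Every listed gene with a peak was named with its values, and sequences were chosen for PNO1, UTP20, 1 gene without a promoter peak and the TAGGG sites. Members, lists and thresholds were chosen with earlier results of these data known, and no test was made. The counting was tested on simulated data, in which 100% of 60 peaks planted in each of 20 sets were found again among 6002 genes. This checks the counting code and not the detection of Vid22 binding. Alternatives covered q, promoter length, midpoint or overlap, assignment to genes, tRNA genes and the comparison genes. Counts were made in Python 3.11.15 with pandas 2.3.3 and numpy 2.4.6, intervals with scipy 1.17.1, and figures with matplotlib 3.10.9.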

Additional observations from a re-analysis of the deposited data

How the results depend on the processing

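PNO1 kept its promoter summit under every alternative tried, and UTP20 did not. The number of the 58 genes with a promoter summit fell to 1, PNO1, with a -log10 q of at least 20, with a promoter of 250 bp, with the peak midpoint in place of the summit and without peaks at tRNA genes. The share of the other genes was then 3.53%, 1.83%, 4.17% and 3.90%. In 9 further alternatives the count was 2 or 3. All peaks gave 8 genes with a peak over gene body or promoter in place of 3. The median promoter fold of 4.34 became 6.98 with a -log10 q of at least 20 and without peaks at tRNA genes, since PNO1 alone remained. Alternatives for the fold threshold and for TAGGG, including TAGGG followed by T or C, which was chosen after seeing the data, left their counts at 1. No paired analysis was possible because each condition has 1 library. Depth limits what can be said of genes without a peak, since the list gives no reads and holds nothing on binding too weak for a peak.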
